A study of Mus musculus with 41 samples.

Results

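The nuclear and mitochondrial genes of oxidative phosphorylation were followed in 3 myeloid subsets sorted from irradiated and untreated rectal tumours of mice. The rule for members used name and level alone, and was set with earlier results of these data known. Gene symbols that begin with Nduf, Cox4 to Cox8, Uqcr or Atp5, the symbols Sdha to Sdhd, and the protein genes of the mitochondrial genome gave 119 names. Names that end in -ps, with or without a number, which are used for pseudogenes, removed 9 of them, and a minimum mean normalised count of 10 removed another 13. This left 97 members, 89 nuclear and 8 mitochondrially encoded, of 55453 genes listed. The member just inside the count minimum was mt-Nd3, with a mean of 10.006, and the gene just outside was Cox6a2, with a mean of 9.801.

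The tumours were grown from MC38-luc, a luciferase-carrying cell line from a mouse colon adenocarcinoma, implanted into the rectum of female C57BL6 mice. The irradiated tumours received 5 Gy on each of 5 days, days 9 to 13 after implantation, the untreated tumours none, and both were harvested on day 14. All cells were sorted as CD45+ CD11b+, then as tumour-associated macrophages (TAM; Ly6C- Ly6G- F480+), inflammatory monocytes (Ly6C+ Ly6G-) or granulocytes (Ly6C+ Ly6G+). The 41 libraries came from 15 tumours, with 5 untreated and 10 irradiated libraries of TAM, 5 and 9 of inflammatory monocytes, and 5 and 7 of granulocytes. The sources used here do not give the age of the mice or say whether animals were pooled.

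Oxidative phosphorylation moves electrons from NADH (complex I) and succinate (complex II) through ubiquinone, complex III and cytochrome c to oxygen at complex IV. The protons pumped on the way drive ATP synthesis at complex V. Complexes I, III, IV and V are built from subunits of both genomes, while complex II is entirely nuclear. The mitochondrial genome is transcribed as long precursors that are cut into single messages, so its genes share their transcription and the nuclear genes do not. In macrophages, respiration is known to be favoured in resting and alternatively activated cells, and glycolysis in inflammatory ones.

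Only the authors' deposited tables of irradiated against untreated cells were analysed, 1 for each subset. For each gene they hold the normalised count averaged over all libraries, the log2 fold change after shrinkage, and the Wald statistic with its p-values. Values of single libraries and the depth of each were not analysed here, so whether the groups overlap cannot be shown and no SD is given. A gene is said below to have risen or fallen where the deposited DESeq2 adjusted p was under 0.05. Values after ± are approximate standard errors, obtained from the ratio of fold change to Wald statistic and the numbers of libraries. As the folds are shrunken towards 0, these errors are shrunken with them. In sorted bulk samples, fewer cells of a type within a gate and less RNA per cell cannot be told apart.

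In TAM, 65 of the 97 members fell after irradiation, in the authors' deposited table for TAM, and 1 rose. Among all 16851 genes tested in TAM, 12.5% fell and 13.9% rose, and 15.2% and 16.5% of those with a mean count from 10 upwards. The 65 were 59 of the 89 nuclear and 6 of the 8 mitochondrially encoded members. Members of every complex were among them, so the fall was spread over the chain and the synthase. Over the members, the median of the log2 values in the authors' deposited table was -0.38, and over all tested genes 0.03. The Wald statistic was below 0 for 92 of the 97 members, against 46.9% of all tested genes. The members are abundant transcripts, and abundant genes leaned the other way: of those tested whose mean count reached 1000, 14.3% fell, 31.2% rose and the median was 0.18. The nuclear members had a median of -0.36 with a median approximate error of 0.13, and the mitochondrial ones a median of -0.68 with 0.22. The Wald statistics of this comparison were widely spread over all genes, with a robust SD of 2.72, and dividing them by it left 0 members called in TAM, as it did in the other subsets.

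**Figure D1:**
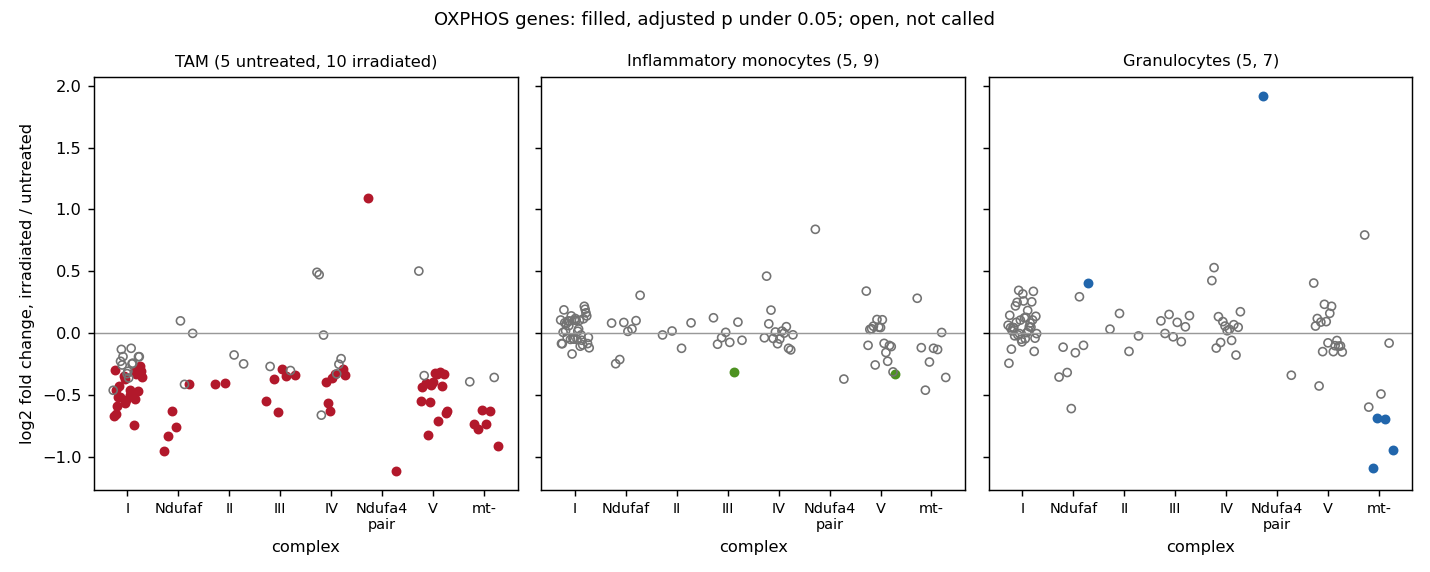
Deposited log2 fold changes of the 97 members, irradiated over untreated, in TAM, inflammatory monocytes and granulocytes (panels; numbers of untreated and irradiated libraries in the titles), by complex on the x axis, with the Ndufaf assembly factors, the Ndufa4 pair and the mitochondrial (mt-) genes apart; filled points have an adjusted p under 0.05. Most TAM points lie below 0 in every column except the Ndufa4 pair, with 1 on each side, and in granulocytes the filled points below 0 are 4 mt- genes.

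Complex I, the NADH dehydrogenase and entry point of most electrons, contributed 36 nuclear subunit genes. In TAM, 23 of them fell and none rose. Their median in the authors' deposited table was -0.35 on the log2 scale, and all 36 had a Wald statistic below 0. Ndufs8, an iron-sulfur subunit on the electron path, had the smallest adjusted p, with a fold change of -0.75 ± 0.13 (adjusted p = 2.29e-07) in the deposited table. Ndufab1, which is also the acyl carrier protein of mitochondrial fatty acid synthesis, stood at -0.66 ± 0.13. The membrane-arm accessory subunits Ndufb2 and Ndufb11 were at -0.67 ± 0.15 and -0.54 ± 0.12. The 13 subunits that did not pass the test had fold changes below 0 too, from -0.46 for Ndufb4 (adjusted p = 0.051) to -0.12 for Ndufa1 (0.409).

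The Ndufaf genes encode factors that assemble complex I and are not part of the finished enzyme. In TAM, 5 of the 8 measured fell, with a median of -0.52 in the authors' deposited table. Ndufaf2 fell by 0.83 on the log2 scale (error 0.20), Ndufaf4 by 0.76 (0.22), Ndufaf6 by 0.95 (0.27) and Ndufaf5 by 0.63 (0.21). Ndufaf1, Ndufaf3 and Ndufaf7 did not pass the test. Ndufaf3 was at 0.00 ± 0.14 in TAM, although its protein is known to act together with that of Ndufaf4.

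Complex II, succinate dehydrogenase, belongs both to the chain and to the tricarboxylic acid (TCA) cycle. Of its 4 genes, the iron-sulfur subunit Sdhb, at -0.40 ± 0.11 (adjusted p = 0.00107), and the membrane anchor Sdhc, at -0.41 ± 0.11 (0.00129), fell in the authors' deposited table for TAM. The flavoprotein Sdha and the other anchor, Sdhd, were at -0.18 ± 0.09 and -0.25 ± 0.13 and did not pass the test.

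Complex III passes electrons from ubiquinol to cytochrome c, and 6 of its 8 nuclear members fell in TAM, with a median of -0.34 in the deposited table. Uqcr10, a small subunit, changed most, by -0.64 ± 0.13 (adjusted p = 1.08e-05). The core protein Uqcrc2 was at -0.37 ± 0.09, the Rieske iron-sulfur protein Uqcrfs1 at -0.35 ± 0.08, and the small subunit Uqcr11 at -0.55 ± 0.14. Uqcrh and Uqcrq were also below 0 but did not pass the test.

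For complex IV, cytochrome c oxidase, 7 of 14 nuclear members fell in TAM and none rose, with a median of -0.33 in the authors' deposited table. Cox5a was at -0.57 ± 0.11 (adjusted p = 1.58e-05), Cox7b at -0.63 ± 0.14 (8.63e-05), Cox5b at -0.37 ± 0.11 and Cox4i1 at -0.34 ± 0.11. The members that did not pass included the tissue-specific isoforms described below.

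Complex V, the ATP synthase, had the largest share of its members called, with 15 of 17 lower in TAM and a median of -0.42 in the authors' deposited table. Atp5b, the catalytic beta subunit, had the smallest adjusted p of all members, 1.79e-16, at -0.63 ± 0.07, which is 35.5% lower on the linear scale. The alpha subunit Atp5a1 stood at -0.65 ± 0.12. Atp5g1, Atp5g2 and Atp5g3 encode the same mature rotor subunit c, and all 3 fell, by 0.82 (error 0.14), 0.55 (0.16) and 0.71 (0.12) on the log2 scale in the deposited table. The members that did not pass were Atp5md, at -0.35, and Atp5l, a gene with a mean count of only 33.9, at 0.50 ± 0.35.

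**Figure D2:**
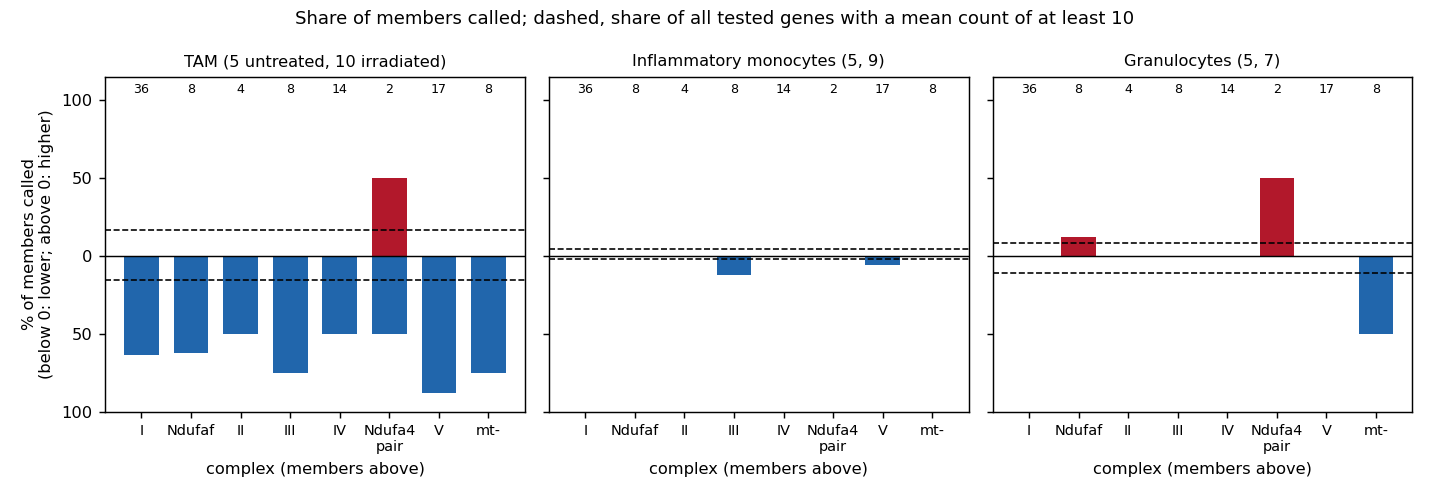
Share of members called (%), bars below 0 for lower and above 0 for higher after irradiation, by complex (x axis, number of members above) in each subset; dashed lines are the share of all tested genes whose mean count reached 10. In TAM every bar below 0 passes its dashed line at 15.2%, while in granulocytes only the mt- bar does, at 50% beside 11.1%.

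The largest change of a nuclear member in TAM was in Ndufa4, a subunit once assigned to complex I and now to complex IV. It fell by 1.12 on the log2 scale (error 0.19, adjusted p = 8.5e-08) in the authors' deposited table, which is 53.9% lower. Its paralog Ndufa4l2, known as a hypoxia-induced gene, was the only member that rose, by 1.09 ± 0.39 (adjusted p = 0.0183), at a mean count of 36.4. The same order was seen in the other subsets. In granulocytes the deposited table gave Ndufa4l2 at 1.92 ± 0.42 (adjusted p = 0.000314) and Ndufa4 at -0.34 ± 0.20 (0.248), and in inflammatory monocytes 0.84 ± 0.40 (0.193) and -0.37 ± 0.19 (0.244). Ndufa4l2 therefore rose in TAM and granulocytes and did not pass the test in monocytes.

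No other pair of paralogs had members past the test in opposite directions. Cox4i2, the lung and hypoxia isoform of Cox4i1, was at -0.66 ± 0.35 (adjusted p = 0.141) in the authors' deposited table for TAM. The heart and muscle isoform Cox7a1 was at 0.47 ± 0.27 (0.177) beside -0.33 ± 0.14 (0.0537) for Cox7a2. Cox7a2l, which takes part in joining complexes III and IV into supercomplexes, was at -0.02 ± 0.12 (0.939). The testis isoform Cox6b2 was at 0.49 ± 0.38 (0.376) and Cox6b1 at -0.25 ± 0.11 (0.0779). None of these passed the test in any subset. Cox6a1 fell in TAM, at -0.29 ± 0.09 (0.0103), Cox8a did not pass the test, at -0.21 ± 0.10 (0.118), and their partners Cox6a2 and Cox8b were below the count minimum.

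**Figure D3:**
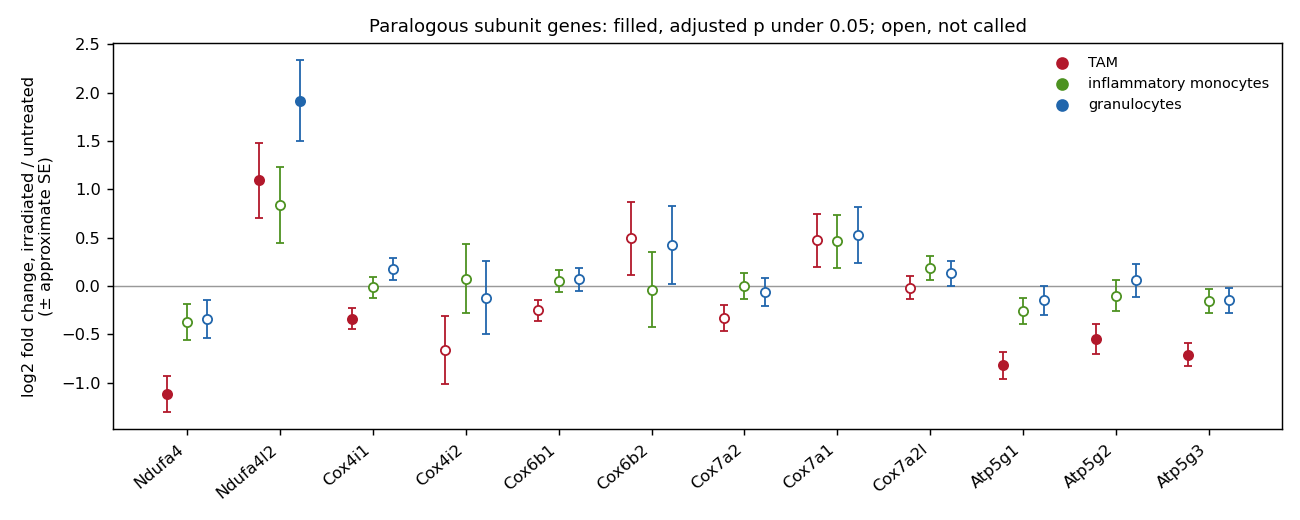
Deposited log2 fold changes (irradiated over untreated) with approximate standard errors for subunit genes that have paralogs, in TAM, inflammatory monocytes and granulocytes; filled points have an adjusted p under 0.05. Ndufa4 and Ndufa4l2 lie on opposite sides of 0 in all subsets, and the 3 Atp5g genes are filled and below 0 in TAM.

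The mitochondrially encoded members were the only group in which genes fell in granulocytes as well as in TAM. All 8 were below 0 in the authors' deposited table for TAM, and 6 fell. mt-Cytb, the mitochondrial core of complex III, was at -0.91 ± 0.23 (adjusted p = 0.000598) in TAM, -0.95 ± 0.24 (0.00177) in granulocytes and -0.36 ± 0.23 (0.41) in inflammatory monocytes. mt-Nd2, a proton-pumping subunit of complex I, was at -0.78 ± 0.24 (0.0087), -1.09 ± 0.26 (0.000742) and -0.46 ± 0.25 (0.291). These are the largest mitochondrial changes in both subsets.

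The other complex I subunits of this genome with mean counts above 100 were also lower in TAM. mt-Nd1 fell by 0.63 on the log2 scale in TAM (adjusted p = 0.0202) and by 0.69 in granulocytes (0.0253), in the authors' deposited tables. mt-Nd4 fell by 0.62 (0.0122) and 0.69 (0.0152). mt-Nd5 and mt-Nd6 fell in TAM, by 0.74 each (0.00564 and 0.0153), and stood at -0.49 (0.135) and -0.60 (0.104) in granulocytes. Annotated copies in the nuclear genome match mt-Co1 over 31.3% of its length (99.8% identity), mt-Nd4 over 63.6% (100%) and mt-Nd5 over 52.3% (95.2%). The counts of mt-Co1, mt-Nd4 and mt-Nd5 are therefore uncertain. mt-Nd6 lies on the opposite strand from the other protein genes, but libraries of this kind keep no strand, so its reads and those of the other strand cannot be told apart. mt-Co1, the catalytic subunit of complex IV, did not pass the test in any subset, at -0.36 ± 0.21 in TAM (0.203), 0.00 ± 0.21 in monocytes (0.996) and -0.08 ± 0.22 in granulocytes (0.855). The ribosomal RNAs, made from the same heavy strand precursors, had values of -0.63 (adjusted p = 0.0412) for mt-Rnr1 and -0.45 (0.142) for mt-Rnr2 in TAM. None of these genes passed the test in inflammatory monocytes.

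**Figure D4:**
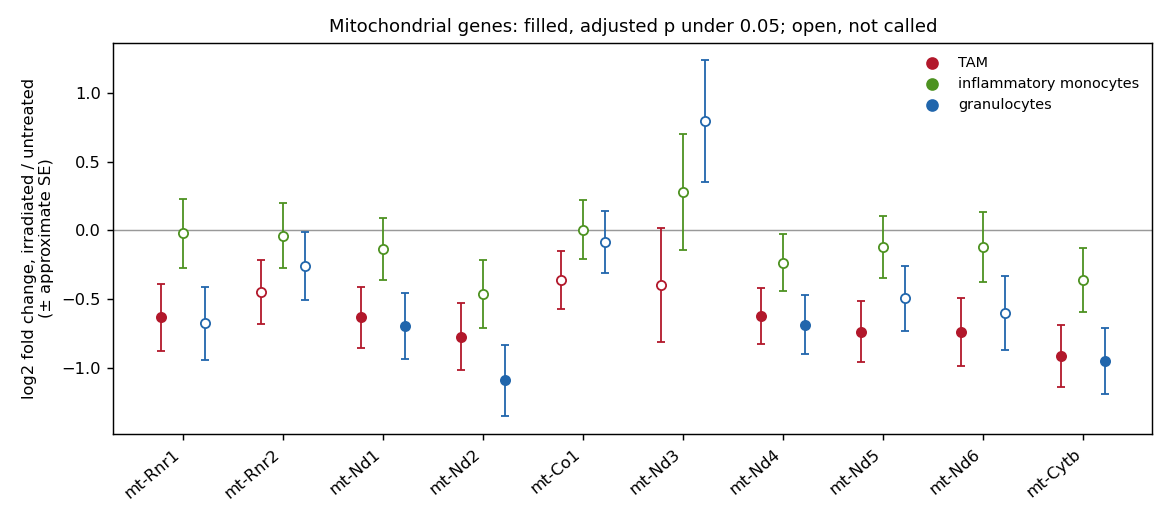
Deposited log2 fold changes (irradiated over untreated) with approximate standard errors of the 8 mitochondrial members and of the ribosomal RNAs mt-Rnr1 and mt-Rnr2, in genome order, for the 3 subsets; filled points have an adjusted p under 0.05. TAM and granulocyte points lie below 0 and close together for mt-Cytb, mt-Nd1 and mt-Nd4, and those of inflammatory monocytes lie nearer 0.

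Most of the middle of the mitochondrial genome could not be read from these tables. The protein genes lie in the order mt-Nd1, mt-Nd2, mt-Co1, mt-Co2, mt-Atp8, mt-Atp6, mt-Co3, mt-Nd3, mt-Nd4l, mt-Nd4, mt-Nd5, mt-Nd6 and mt-Cytb. Of these 13, mt-Atp8, mt-Atp6, mt-Co3 and mt-Nd4l were listed at a mean count of 0, mt-Co2 at 0.042 and mt-Nd3 at 10.006. Next to them, mt-Co1 had a mean of 14085 and mt-Nd4 one of 2273. Per kilobase of transcript, the mean count was 16501.5 for mt-Cytb, 9116 for mt-Co1 and 28.8 for mt-Nd3, beside a median of 1661 for the nuclear members. Each nuclear gene was taken as its longest coding transcript, so values of genes with a shorter message are too low. All mitochondrial subunits of complex V and most of those of complex IV are therefore missing from the comparison.

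The genes at or near 0 have almost identical copies in the nuclear genome. Among the GENCODE M21 transcripts, 7 mitochondrial protein genes had an annotated copy of at least 99% identity, all unprocessed pseudogenes on chromosome 1. They lie within 4663 bases, at chr1:24611535-24616197 (GRCm38, minus strand), in the same order as on the mitochondrial genome. The copies of mt-Co2, mt-Atp6, mt-Co3 and mt-Nd4l were identical over all but 1 to 3 bases of the gene. mt-Co1 was matched over 31.3% of its length and mt-Nd4 over 63.6%. mt-Atp8 was the exception among the genes at 0, as its best annotated copy had 81.4% identity. The copies of mt-Co2 and mt-Atp6, which flank it, are 233 bases apart on chromosome 1, and what lies between them was not analysed here. The 6 genes without such a copy were mt-Nd1, mt-Nd2, mt-Atp8, mt-Nd5, mt-Nd6 and mt-Cytb.

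The reads did not appear in the rows of the copies. In the authors' deposited tables, 6 of the 7 copies had a mean count under 1, and only Gm28438, the copy of mt-Nd3, had one of 17.7. The sources used here do not give how reads that match several places were counted, and its part in the missing values was not tested. Over 345 of 348 bases, mt-Nd3 and Gm28438 differ at 1 position, T3C, counted from base 1 of the mt-Nd3 transcript (chrM:9459-9806), with the mitochondrial base given before the position. Bases 1 to 32 of both are shown 5′ to 3′ because this difference is the only one over the compared bases, and capitals mark it.
mt-Nd3: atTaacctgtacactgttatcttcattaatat
Gm28438: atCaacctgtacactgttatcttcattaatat
Reads from the compared bases that do not cover this position are the same for both genes. The fold changes of mt-Nd3, at -0.39 ± 0.41 in TAM and 0.79 ± 0.44 in granulocytes (adjusted p = 0.474 and 0.258 in the deposited tables), are therefore uncertain.

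**Figure D5:**
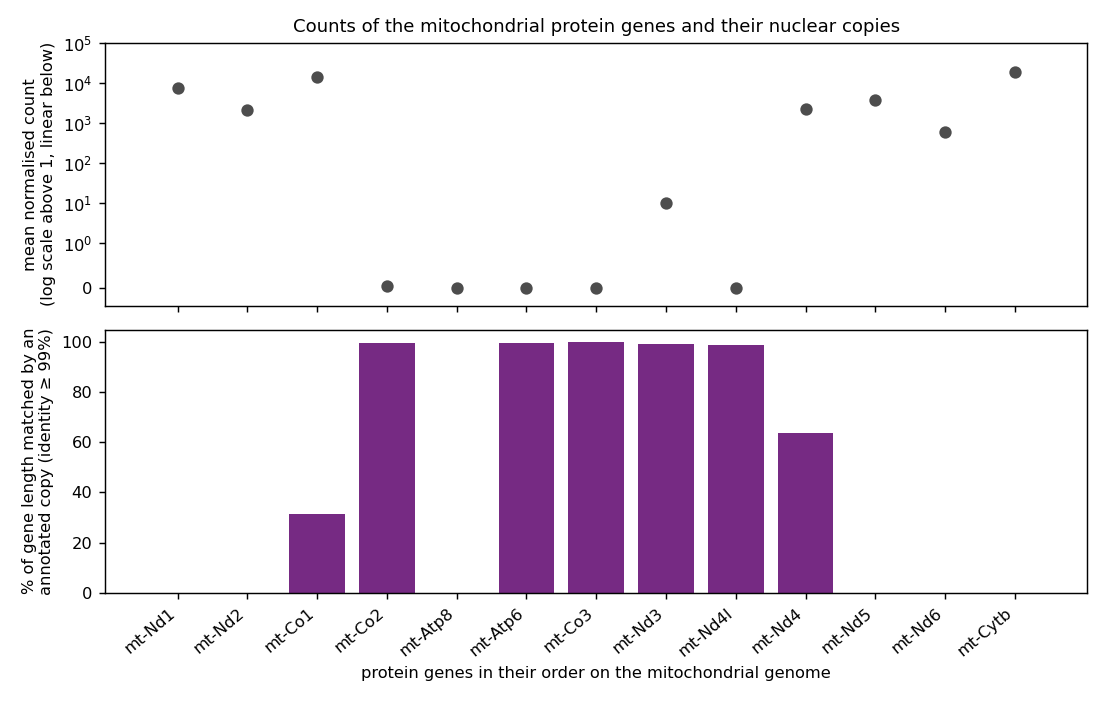
Upper panel, mean normalised count of the 13 mitochondrial protein genes in genome order (log scale above 1, linear below); lower panel, share of each gene's length (%) matched by an annotated copy of at least 99% identity. Apart from mt-Atp8, the genes at or near 0 are those with an annotated copy over almost their whole length.

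Among the nuclear members, few near-identical copies were found. Each gene was taken as its longest coding transcript, of 4715 bases for Atp5g1 and 3479 for Ndufab1. A copy of a shorter message could therefore be missed. Of 88 with a GENCODE transcript, 7 (Atp5h, Atp5k, Atp5l, Atp5o, Ndufb11, Ndufs3 and Uqcrb) had a transcript of another gene with at least 95% identity over at least 50% of their length, so their counts are uncertain. In TAM, 5 of these 7 fell and 54 of the 81 others, in the authors' deposited table.

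In inflammatory monocytes 2 members changed. Atp5b, at -0.33 ± 0.07 (adjusted p = 0.000492), and Uqcrfs1, at -0.32 ± 0.09 (0.00812), fell in the authors' deposited table, and none rose. These 2 of 97 are near the 1.77% of all 14506 tested genes that fell in this subset, where 4.13% rose, and to the 1.89% and 4.37% of those with a mean count from 10 upwards. The median over the members was 0.00, and 48 had a Wald statistic below 0. Both genes also fell in TAM. Atp5a1, the partner of Atp5b in the catalytic head of the synthase, was at -0.31 ± 0.12 and did not pass the test (0.0899). Sdha, the flavoprotein of complex II, was at -0.12 (0.474).

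In granulocytes the members that fell were all mitochondrial. None of the 89 nuclear members fell in the authors' deposited table, and 4 of the 8 mitochondrial ones did. Over both, 4 of 97 fell, beside 9.9% of all 15679 tested genes, and 2 rose, beside 7.32% (11.1% and 8.23% with a mean count from 10 upwards). The genes that rose were Ndufa4l2 and the assembly factor Ndufaf3, at 0.40 ± 0.15 (adjusted p = 0.0454). The median log2 fold change was 0.04 over the nuclear and -0.64 over the mitochondrial members, a difference that was not itself tested. All 4 genes that fell, mt-Cytb, mt-Nd1, mt-Nd2 and mt-Nd4, also fell in TAM. Among abundant nuclear members, Cox4i1 was at 0.17 ± 0.11 (0.314), Uqcrc1 at 0.14 ± 0.11 (0.411) and Atp5b at -0.15 ± 0.08 (0.147).

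Whether the effect of irradiation differed between subsets was tested from the deposited folds and Wald statistics, in an approximate test chosen after the tables were seen. The fold-to-Wald ratio, scaled by the numbers of libraries, was compared between subsets and gave median ratios from 0.987 to 0.995. Only members with a Wald statistic of at least 1 in size in both subsets entered. These were 26 for TAM and monocytes, 42 for TAM and granulocytes, and 19 for monocytes and granulocytes. Whether the comparisons came from a joint fit is not known here. In such a fit this agreement is built in, so it does not show that the spread was alike. The test covered 10683 genes whose mean count reached 50, among them 93 members. Between TAM and inflammatory monocytes, 23 members differed at a Benjamini-Hochberg adjusted p under 0.05, all nuclear and all lower in TAM, beside 4.91% of all tested genes lower in TAM and 5.52% higher. Between TAM and granulocytes 35 differed, again all nuclear and lower in TAM, beside 6.14% lower and 11.2% higher. Between monocytes and granulocytes none differed, with 2 members at an unadjusted p under 0.05, beside 0.328% of all genes lower in monocytes and 1.29% higher. The subsets come from the same tumours, and this pairing was not part of the test.

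By complex, the members with a larger fall in TAM than in granulocytes were 15 of 36 nuclear complex I subunits, 2 of 4 of complex II, 4 of 8 of complex III, 3 of 13 of complex IV, 10 of 16 of complex V, and Ndufa4. Against monocytes the counts were 11, 1, 2, 1 and 6, with Ndufa4 and 1 assembly factor, Ndufaf4. Atp5o, the stalk subunit that joins the head of the synthase to its stator, had the smallest adjusted p in both tests: its fold change in TAM was lower by 0.79 than in granulocytes (approximate 95% interval of the difference -1.12 to -0.47, adjusted p = 7.28e-05). For Ndufs8 the difference from granulocytes was -0.80 (-1.17 to -0.43, adjusted p = 0.000569). Uqcrfs1, which fell in TAM and in monocytes, differed between them by -0.03 (-0.27 to 0.21).

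No mitochondrial member differed between subsets in this test. For mt-Cytb the fold change in TAM less that in granulocytes was 0.04, with an approximate 95% interval from -0.61 to 0.69. The corresponding difference from monocytes was -0.55 (-1.19 to 0.08). Over the 7 mitochondrial members tested, the median difference between TAM and granulocytes was 0.04 and the smallest adjusted p was 0.585. The approximate errors of these differences are larger than those of most nuclear members, and an adjusted p above the threshold does not show that the effects were alike.

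Some promoters of the nuclear members, which the rule did not use, hold motifs known from genes of mitochondrial proteins. RefSeq promoter windows of 300 bases, from 250 before to 50 after a start site (GRCm38.p6), matched 74 of the 89 nuclear members and 27025 genes in all. The motif of nuclear respiratory factor 1 (NRF1), searched as its palindromic core on both strands like the others, was in 28.4% of the members and 7.00% of all genes. CCGGAAG, an ETS motif of the kind bound by GABP, was in 25.7% and 9.93%, and the YY1 motif AAGATGGC in 14.9% and 3.19%. The E-box CACGTG, bound by MYC and related factors, was in 8.11% and 8.09%. None of the 4 motifs contains another. The NRF1 motif was in 33.3% of the 48 matched members that fell in TAM and 19.2% of the 26 others, the ETS motif in 20.8% and 34.6%, the YY1 motif in 18.8% and 7.69%, and the E-box in 8.33% and 7.69%. All these shares are a description and were not tested, and the 27025 genes were not matched to the members for expression or base content. The 100 bases before the start site of 4 members that fell in TAM are shown, 1 for each motif, 5′ to 3′ on the strand of the gene with the motifs in capitals. They lie at chr7:122101849-122101948 (Ndufab1, NRF1), chr16:84834977-84835076 (Atp5j, YY1 then ETS), chr10:80406822-80406921 (Uqcr11, ETS) and chr11:96075632-96075731 (Atp5g1, E-box), all on the minus strand.
Ndufab1: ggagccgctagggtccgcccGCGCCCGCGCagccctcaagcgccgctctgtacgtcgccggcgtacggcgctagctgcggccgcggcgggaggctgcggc
Atp5j: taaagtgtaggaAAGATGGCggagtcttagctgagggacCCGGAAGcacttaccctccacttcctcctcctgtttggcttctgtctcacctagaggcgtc
Uqcr11: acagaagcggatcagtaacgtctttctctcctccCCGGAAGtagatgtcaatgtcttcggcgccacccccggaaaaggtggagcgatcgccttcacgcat
Atp5g1: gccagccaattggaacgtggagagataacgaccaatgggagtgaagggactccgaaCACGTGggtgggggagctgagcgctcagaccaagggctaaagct

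Of these, Ndufab1 and Atp5g1 were described above. Atp5j, coupling factor of the synthase stalk, was at -0.33 ± 0.09 in TAM (adjusted p = 0.00278) and 0.16 ± 0.10 in granulocytes (0.285) in the authors' deposited tables.

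Genes of mitochondrial energy metabolism outside the rule fell in TAM as well, among them members of the TCA cycle and of transport into the organelle. Over the pathway lists, 44 of 129 tested genes fell and 7 rose in the authors' deposited table for TAM, beside the 12.5% and 13.9% of all tested genes. Of 20 TCA cycle and pyruvate dehydrogenase genes, 11 fell and none rose. Idh2, Idh3a and Fh1, which encode a pair of isocitrate dehydrogenases and fumarase, were at -1.01, -1.11 and -1.23. Of 18 carriers, channels and import factors, 14 fell. Slc25a4, an ADP/ATP carrier, was at -1.64, Slc25a5, its paralog, at -0.64, and the chaperonin Hspd1 at -0.99.

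Among 15 electron carrier genes, which make ubiquinone or encode cytochrome c and its reductase partner, 6 fell and 2 rose in TAM. Of all tested genes 12.5% fell and 13.9% rose, so the count that rose is near the background. Cyc1, the cytochrome of complex III that the name rule leaves out, was at -0.45 (adjusted p = 0.000315), and Cycs, cytochrome c itself, at -0.36 (0.0254) in the deposited table. Pdss1 and Coq6, of ubiquinone synthesis, were at -0.96 and -0.79, while Coq8b, at 0.60, and Coq10b, at 0.49, rose. Assembly factors outside the Ndufaf family were counted by complex. For complex I 3 of 9 fell (Dmac1, Ecsit and Acad9), for complex II none of 4, for complex III 2 of 6 (Bcs1l and Uqcc2), for complex IV 2 of 17 (Cox10 and Cox18) and for complex V 1 of 3 (Tmem70), and none rose. Beside the 12.5% of all tested genes that fell, the count for complex IV is near the background, and the lists of complexes II and V are too short to compare. Atpif1, the inhibitor of ATP hydrolysis by complex V, fell in TAM, at -0.80 (adjusted p = 4.56e-07), and was at 0.10 in monocytes and -0.04 in granulocytes.

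Of the factors that express the mitochondrial genome, 4 of 18 fell in TAM and none rose, beside 12.5% and 13.9% of all tested genes. Fastkd2, at -0.69, Ssbp1, at -0.54, and Tfb1m, at -0.82, had the smallest p-values in the authors' deposited table, and Tfam, which packages and transcribes the genome, was at -0.26 and did not pass the test (adjusted p = 0.214). Among 11 nuclear regulators, Pparg fell, at -1.28, and Esrra rose, at 0.38, counts of 1 in each direction that are no more than the background. The genes of the factors whose motifs were searched, Nrf1, Gabpa and Yy1, were at 0.08, -0.12 and -0.05 and did not pass the test. Mitophagy genes went the other way, with 4 of 8 higher and none lower. Pink1 was at 0.99, Bnip3l at 0.57 and Map1lc3b at 0.41.

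The same lists gave 10 lower and 10 higher of 129 in granulocytes, near the 9.9% and 7.32% of all tested genes, and 1 and 1 of 127 in inflammatory monocytes, beside 1.77% and 4.13%. Over all lists these counts are near or below the background, and the genes that follow are given as single values. In granulocytes 6 of 18 carrier and import genes fell, led by Hspa9, at -0.999, Slc25a4, at -1.20, and Slc25a3, the phosphate carrier, at -0.54 in the authors' deposited table. Coq10b, which rose in TAM, fell in granulocytes, at -1.43 (adjusted p = 3.62e-14). Pdk3 and Pdk2, kinases that switch off pyruvate dehydrogenase, rose, at 0.62 and 0.999. The copper chaperone Cox17, of complex IV assembly, fell, at -0.97, and Polrmt, the mitochondrial RNA polymerase, rose, at 0.64. In monocytes the channel Vdac1 fell, at -0.51, and the elongation factor Tefm rose, at 0.64.

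Markers of cell types moved beside these genes, where the shares of all tested genes that fell and rose were 12.5% and 13.9% in TAM, 1.77% and 4.13% in inflammatory monocytes, and 9.9% and 7.32% in granulocytes. In the authors' deposited table for TAM, 10 of 13 neutrophil, 6 of 10 monocyte and 4 of 6 eosinophil markers rose and none fell, and 4 of 9 dendritic cell markers, 3 of 8 fibroblast markers and 2 of 11 T and NK cell markers fell and none rose. The direction is that of the Wald statistic, and for some neutrophil markers the shrunken fold has the other sign, as for Ngp, at -0.59 beside a Wald statistic of 9.20. Of 13 TAM markers 2 rose in TAM, Mertk and Apoe, which is near the background, as are the 2 T and NK cell markers that fell. In monocytes 10 of the 13 TAM markers rose, and in granulocytes 6. In granulocytes 1 of 13 neutrophil markers, Mmp8, rose, 4 of 10 monocyte markers rose and 3 of 7 fibroblast markers fell. In monocytes 7 of 13 neutrophil markers rose and none of 10 monocyte markers was called. In TAM, 2 of 9 epithelial tumour markers rose and none fell, and 1 of 6 B and plasma cell markers fell and none rose. Eosinophil markers rose in monocytes (2 of 6) and granulocytes (1 of 6). In granulocytes 3 of 11 T and NK cell markers fell, and in monocytes 1 of 6 B and plasma cell markers rose. Epx, the eosinophil peroxidase, had a mean count of 0.351. The tables give no level per group, so the labelled cell types could not be checked against marker levels in each subset. The part of these markers in the lower values of the members was not tested.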

How the data were processed

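RNA of sorted TAM, inflammatory monocytes and granulocytes from 15 tumours was sequenced as Nextera XT cDNA libraries, per the labels' protocols. Per the submitters' processing notes, DESeq2 1.28.1 (in R 4.0.2), STAR 2.7.6a and fastp 0.20.1 were used with mm39 (GRCm39). The sources used here do not give the counting, strand setting or annotation, and such libraries keep no strand. The authors deposited 3 comparison tables without values of single libraries. The mean normalised count, a signal averaged by the authors, is the same in all 3 tables. The deposited log2 fold change was read as shrunken, the Wald statistic is a deposited score, and the deposited p-values equal its normal p within 0.0021 on the log10 scale. Direction was taken from the Wald statistic. It never differed in sign from the fold among called members.

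Members, gene lists and motifs were chosen with earlier results of these data known. Named genes were all mitochondrial members, up to 4 called members per complex, direction and subset with the smallest adjusted p (where none, up to 2 with the highest mean), isoform pairs, and up to 3 called genes per list. A gene that this rule takes is not reported here. Others, including Atp5o, Atp5j, Ndufaf3 in TAM and the uncalled members, were named after their values were seen. A planned test of opposite directions took the larger of both p-values where signs differ. The test of differences divided the difference of Wald statistics, each weighted by its factor for library numbers, by the combined factor. It was tried on simulated data with independent subsets and no excess spread. The real subsets share tumours and have widely spread Wald statistics, so that trial does not give the error rate here. Planned protein comparisons were not run. Transcripts (GENCODE M21, GRCm38) were compared with blastn 2.17.0+, and promoters came from RefSeq (GRCm38.p6). No coordinates were converted to the build of the files. Nothing says whether the tumours of a group came from mice of separate litters, so p-values measure the spread between these libraries. Python 3.11.15, pandas 2.3.3, numpy 2.4.6 and scipy 1.17.1 were used.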

Additional observations from a re-analysis of the deposited data

Results flagged for a closer look

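By the approximate test of the difference itself, 23 members differed between TAM and inflammatory monocytes and 35 between TAM and granulocytes. All were lower in TAM, beside 4.91% and 6.14% of all genes in that test. Division by the robust SD, which left no member called within a subset, was not tried on this test. The values below are log2 fold changes in TAM less those in the other subset. They cover members named per complex, direction and subset that had an adjusted p under 0.05. Other named members that passed include Atp5o, at -0.67 against monocytes and -0.79 against granulocytes. Atp5j, at -0.43 and -0.49, and Atp5g2, at -0.61 against granulocytes, passed too.

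Against inflammatory monocytes, the complex I members Ndufs8, Ndufab1, Ndufb2 and Ndufb11 differed by -0.69, -0.66, -0.58 and -0.49, and the assembly factor Ndufaf4 by -0.84. Sdhb of complex II differed by -0.42, and Uqcr10 and Uqcr11 of complex III by -0.65 and -0.67. For complex IV, Cox5a differed by -0.57, and Ndufa4 by -0.74. The complex V members Atp5b, Atp5g1 and Atp5g3 differed by -0.30, -0.56 and -0.55.

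Against granulocytes, the complex I members Ndufs8, Ndufab1, Ndufb11 and Ndufa13 differed by -0.80, -0.70, -0.49 and -0.45. Sdhb and Sdhc of complex II differed by -0.56 and -0.45. Of complex III, Uqcr10, Uqcr11, Uqcrc1 and Uqcrc2 differed by -0.61, -0.65, -0.48 and -0.52. Of complex IV, Cox4i1, Cox5a and Cox7b differed by -0.51, -0.66 and -0.69, and Ndufa4 by -0.77. Of complex V, Atp5a1, Atp5b, Atp5g1 and Atp5g3 differed by -0.54, -0.48, -0.67 and -0.56. Outlying libraries were not looked for, since the tables hold no values of single libraries.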

How the results depend on the processing

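The tables allow no refit, so no library could be left out. No paired analysis was possible because the deposited comparisons hold no values of single libraries, and untreated and irradiated libraries come from different tumours. Of 77 alternatives, 61 left a count within 1.5 times its reported value. These include counts of 0 that stayed 0, as for members higher in monocytes. They also include taking the direction from the fold change. That setting could move no count of called members, since none had a fold of the other sign. The other 16 alternatives are given here. Dividing the Wald statistics by their robust SD (2.72 in TAM, 1.56 in monocytes, 2.09 in granulocytes) left 0 members called in every subset and direction: 0 in place of 65 lower and 1 higher in TAM, 2 lower in monocytes, and 4 lower and 2 higher in granulocytes. This scaling takes the typical gene as unchanged, and the cause of the wide spread was not tested. At an adjusted p under 0.01, higher members numbered 0 in TAM and 1 in granulocytes, lower members in granulocytes 2, and members that differed between TAM and monocytes 5 and between TAM and granulocytes 13. At 0.1, 4 members were higher in granulocytes. A mean count of at least 100 left 0 higher in TAM and 1 in granulocytes. Adjusting over all genes that have a p-value, or leaving out the Ndufaf genes, each left 1 higher in granulocytes. With nuclear members only, 0 were lower in granulocytes. Settings of the difference test were chosen after seeing the data. No member passed the planned test of opposite directions in any pair of subsets, with 2 at an unadjusted p under 0.05 between TAM and granulocytes. Of all genes in that test, 15 of 15679 (0.0957%) passed between TAM and granulocytes and 0 of 14506 in each other pair. The count of members is therefore near that of all genes. Shrunken folds understate changes of weakly counted members such as Ndufa4l2, and the depth of the libraries is unknown.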

Other observations

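Ndufb1-ps carries a pseudogene name but had a mean count of 1750, like that of the complex I subunit genes. It is no member by its name. In the authors' deposited tables its log2 fold changes were -0.16 (TAM), 0.10 (inflammatory monocytes) and 0.05 (granulocytes), and none was called.

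Gm28438, the nuclear copy of mt-Nd3, had log2 fold changes of -1.08 in TAM (adjusted p = 0.108), -0.89 in inflammatory monocytes (0.395) and -1.51 in granulocytes (0.0473) in the authors' deposited tables. In granulocytes this lies on the other side of 0 from the value of mt-Nd3, 0.79.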
